A study of Mus musculus with 4 samples.

Results

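The 10 genes for short-lived transcriptional and stress regulators (Bhlhe40, Skil, Taf4b, Klf10, Gadd45b, Ier2, Ier3, Ier5, Nfil3 and Zfp36) were followed in activated mouse CD4+ T cells exposed to interferon alpha (IFNa). Each of the 10 symbols named 1 row of the array by itself, so they are 10 of the 19752 genes that the array reads with a separate row. The set was chosen by name with the log2 intensities of these same 4 arrays (baseline, 2 h and 8 h) already in view, so their values are given as a description and without a test. The statistical model covered 10699 genes that exceeded the array median at least once. It held 9 of the 10 genes, and Ier3 was below the median throughout.

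The cells were splenic CD4+ T cells of male C57BL/6 mice aged 6 weeks, obtained by negative selection (removal of the other cell types) and stimulated for 48 h with beads carrying antibodies to CD3 and CD28. The baseline group had 2 arrays and no IFNa, and IFNa at 100 U/ml was then given for 2 h (1 array) or 8 h (1 array). Nothing in the labels separates the baseline samples by mouse or culture. The spread behind every p-value came only from this pair of arrays, in large part pooled over all tested genes, and it may be technical. Neither IFNa time had a second array to give a spread of its own. Cells cultured equally long without IFNa were not analysed here, and IFNa and culture time cannot be told apart. The preparation note on both IFNa arrays names Janus kinase inhibitors as present or absent, and which it was is not settled by their other labels.

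Immediate early genes are switched on rapidly by a stimulus, without new protein being made first, and their messages and proteins usually disappear quickly. In T cells they follow signals from the antigen receptor, cytokines and stress. Several of the products act as brakes: SnoN (from Skil) and the zinc finger protein of Klf10 belong to the feedback on transforming growth factor beta (TGF-beta) signalling, Gadd45b feeds into stress-activated kinases, and the Zfp36 protein brings messages with AU-rich elements to decay. Bhlhe40 and Nfil3 are repressor-type transcription factors linked to the circadian clock and to helper T cell cytokines.

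The promoters of 4 of these genes are shown because the genes took different courses: Gadd45b and Ier5 were high only at 2 h, Nfil3 was low only at 8 h, and Zfp36 stayed near baseline. Each line holds the 250 bases before the start of transcription from RefSeq (build GRCm38.p6), 5′ to 3′ on the gene's strand, with every motif match in capitals. The Gadd45b window is chr10:80929841-80930090 (plus strand), the Ier5 window chr1:155099637-155099886 (minus strand), the Nfil3 window chr13:52981040-52981289 (minus strand) and the Zfp36 window chr7:28379229-28379478 (minus strand).
Gadd45b: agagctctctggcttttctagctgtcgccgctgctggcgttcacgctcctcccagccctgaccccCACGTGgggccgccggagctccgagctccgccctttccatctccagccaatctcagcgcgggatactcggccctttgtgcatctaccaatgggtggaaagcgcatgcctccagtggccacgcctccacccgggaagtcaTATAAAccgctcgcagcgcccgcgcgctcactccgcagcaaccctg
Ier5: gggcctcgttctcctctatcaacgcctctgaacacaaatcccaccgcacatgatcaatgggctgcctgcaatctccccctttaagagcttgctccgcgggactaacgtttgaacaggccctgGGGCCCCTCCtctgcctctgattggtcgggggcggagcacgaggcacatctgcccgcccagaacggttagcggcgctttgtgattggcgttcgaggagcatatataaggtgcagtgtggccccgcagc
Nfil3: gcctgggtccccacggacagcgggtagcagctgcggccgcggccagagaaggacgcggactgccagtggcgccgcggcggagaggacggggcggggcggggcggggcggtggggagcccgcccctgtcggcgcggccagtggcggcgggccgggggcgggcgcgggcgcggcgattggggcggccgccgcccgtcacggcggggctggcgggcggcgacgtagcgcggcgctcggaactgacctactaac
Zfp36: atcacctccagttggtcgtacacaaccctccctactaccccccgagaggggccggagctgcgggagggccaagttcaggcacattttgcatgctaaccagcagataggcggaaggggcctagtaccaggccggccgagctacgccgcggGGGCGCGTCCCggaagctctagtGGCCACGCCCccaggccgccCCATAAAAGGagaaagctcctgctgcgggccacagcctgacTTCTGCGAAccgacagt
The capitals in Gadd45b are an E-box (CACGTG, the motif that Bhlhe40 protein binds) and a TATA motif (TATAAA). Those in Zfp36 are a CArG box (the serum response motif), a GAS match (TTCNNNGAA, the motif of STAT dimers) and kappa B matches (the NF-kappaB motif), of which a pair overlap. Ier5 held 1 kappa B match and Nfil3 held none of the 9 motifs searched on both strands, which also included CRE (TGACGTCA), D-box (TTANNTAA), AP-1 (TGANTCA) and the ISRE core (the interferon response motif). Among all 32841 windows of this length the E-box was present in 6.02%, TATA in 12.4%, the CArG box in 1.47%, GAS in 7.02%, kappa B in 45.8%, CRE in 1.55%, the D-box in 5.44%, AP-1 in 6.75% and the ISRE core in 2.98%. Ier3 was the only other of the 10 genes with a window in the table, with kappa B matches alone. A match is a run of letters and does not show that a factor was bound.

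**Figure D1:**
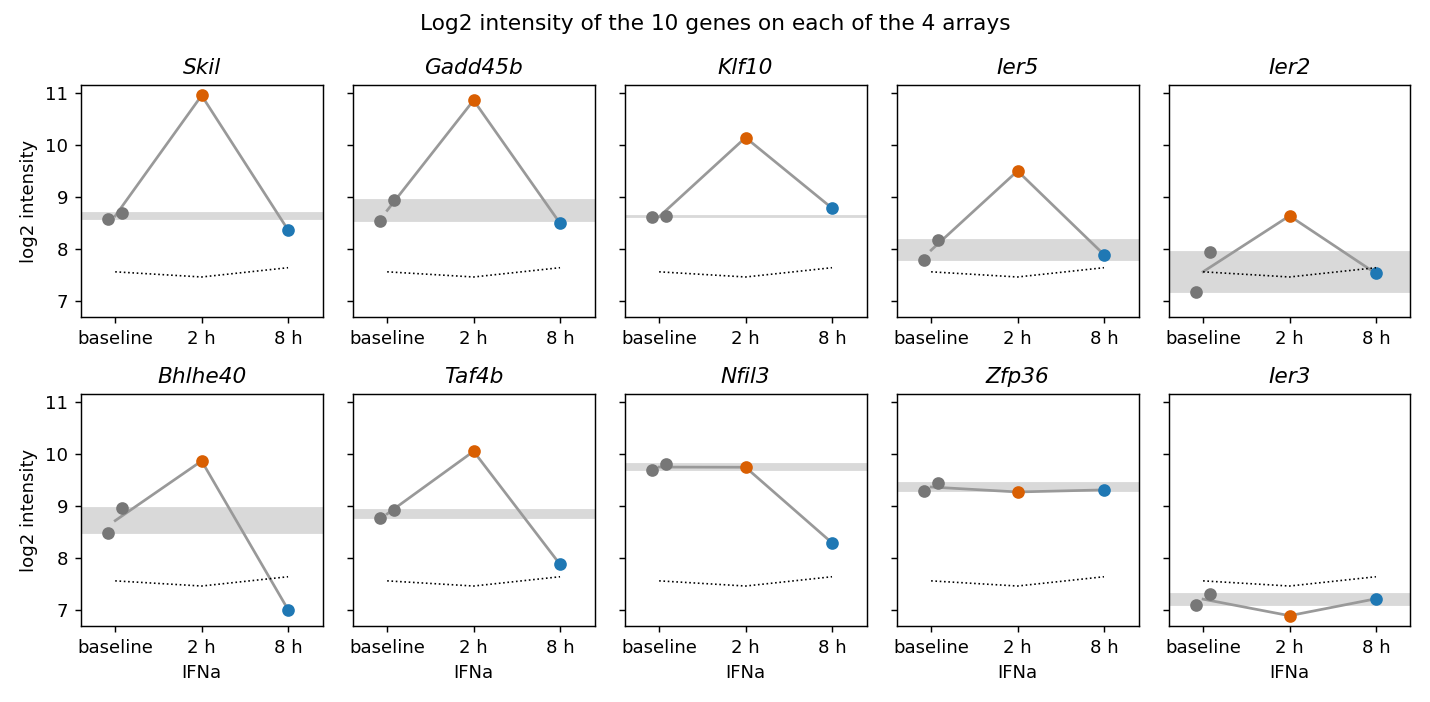
Log2 intensity (y axis) of each of the 10 genes at baseline (2 grey points), 2 h (orange) and 8 h (blue) of IFNa (x axis). The grey band spans the 2 baseline arrays, the line passes through the baseline mean, and the dotted line is the median of all rows of each array. Of the 9 genes in the model, 7 had their highest value at 2 h (41.4% of all tested genes), and Bhlhe40, Taf4b and Nfil3 ended far below the band.

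The genes took 3 courses. Skil, Gadd45b, Klf10, Ier5 and Ier2 were high at 2 h and close to baseline at 8 h, Bhlhe40 and Taf4b were high at 2 h and well below baseline at 8 h, and Nfil3, Zfp36 and Ier3 were not high at 2 h. The word transient in the working name of the set therefore covers 7 of the 10 genes in these data. In the model over all genes (limma, adjusted p under 0.05), 5 of the 9 genes were called higher at 2 h than at baseline, against 1.09% of all tested genes, 3 were called lower at 8 h than at baseline (3.35%), and 7 were called lower at 8 h than at 2 h (10.8%). By size alone 7 of the 9 were at least 2-fold higher at 2 h than at baseline (1.77% of all), 2 at least 2-fold lower at 8 h than at baseline (2.6%) and 8 at least 2-fold lower at 8 h than at 2 h (8.65%). Since those contrasts chose the genes, nothing is read from these counts. The median log2 difference of the 9 was 1.21 at 2 h, −0.25 at 8 h and −1.61 between the times, beside 0.06, −0.16 and −0.25 for all tested genes. The arrays are of bulk RNA, in which fewer cells with a message and less of it per cell cannot be told apart.

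Skil encodes SnoN, a corepressor that holds SMAD proteins in check. Its deposited intensity was 383 and 414 before IFNa, 1989.6 after 2 h and 330.4 after 8 h. The 2 h array was thus 2.32 above the baseline mean on the log2 scale (8.64 ± 0.08, SD, n = 2), the largest early difference among the 10 genes. The 8 h array differed from the baseline arrays by −0.21 and −0.32, below both. Between the 2 IFNa times the difference was −2.59 (8 h minus 2 h). Gadd45b, a stress-induced activator of the kinase Map3k4 upstream of p38 and JNK, had 371 and 495 before IFNa, 1866 after 2 h and 361 after 8 h. Its 2 h array was 4.35-fold above the baseline mean (8.74 ± 0.29 on the log2 scale), and its 8 h array differed from the lower baseline array by −0.04, a smaller gap than the 0.42 between the baseline arrays.

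Klf10, a TGF-beta-inducible zinc finger repressor, had 391 and 397 before IFNa, 1134 after 2 h and 442 after 8 h. The 2 baseline arrays were close (8.62 ± 0.01, SD, n = 2), the 2 h array was 2.88-fold higher, and Klf10 alone of the 9 genes in the model ended above both baseline arrays, by 0.18 and 0.15. Ier5, an immediate early gene whose product takes part in the heat shock response, had 221 and 287 before IFNa, 726 after 2 h and 238 after 8 h. Its 2 h array was 2.88-fold above the baseline mean, and at 8 h it lay between the baseline arrays. Ier2, a small nuclear immediate early protein of the same family, had 145 and 247 before IFNa, 399 after 2 h and 185 after 8 h. Its baseline arrays differed 1.70-fold, so that the 2 h array stood 0.69 above baseline 2 and 1.46 above baseline 1, and the 8 h array again lay between them.

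Bhlhe40 is a basic helix-loop-helix repressor needed for cytokine production by helper T cells. It had 359 and 497 before IFNa, 936 after 2 h and 129 after 8 h. The 2 h array was 2.22-fold above the baseline mean (8.72 ± 0.33), and the 8 h array was 3.28-fold below it and differed from the baseline arrays by −1.48 and −1.95. Its drop between the IFNa times (−2.86) was the largest of the 10 genes, and its percentile among all rows of the array was 63.2 and 67.8 before IFNa, 78.4 after 2 h and 36.1 after 8 h. Taf4b, a variant subunit of the general transcription factor TFIID, had 437 and 488 before IFNa, 1065.5 after 2 h and 235 after 8 h. It was 2.31-fold above the baseline mean at 2 h (8.85 ± 0.11) and 1.96-fold below it at 8 h, outside both baseline arrays each time.

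Nfil3, a basic leucine zipper repressor that binds D-box elements, had 829 and 898 before IFNa, 861 after 2 h and 314 after 8 h. The 2 h array lay between the baseline arrays (9.75 ± 0.08), and the 8 h array was 2.75-fold below their mean. Nfil3 thus shared the late low values of Bhlhe40 and Taf4b without their early peak. Zfp36 (tristetraprolin) had 627 and 697 before IFNa, 619 after 2 h and 636 after 8 h, the narrowest log2 range of the 10 genes. Ier3, an immediate early regulator of cell death, had 137 and 159 before IFNa, 119 after 2 h and 149 after 8 h. It was dim throughout, with percentiles of 40.4 and 46.9 before IFNa, 40.8 after 2 h and 40.6 after 8 h, and was not in the model.

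**Figure D2:**
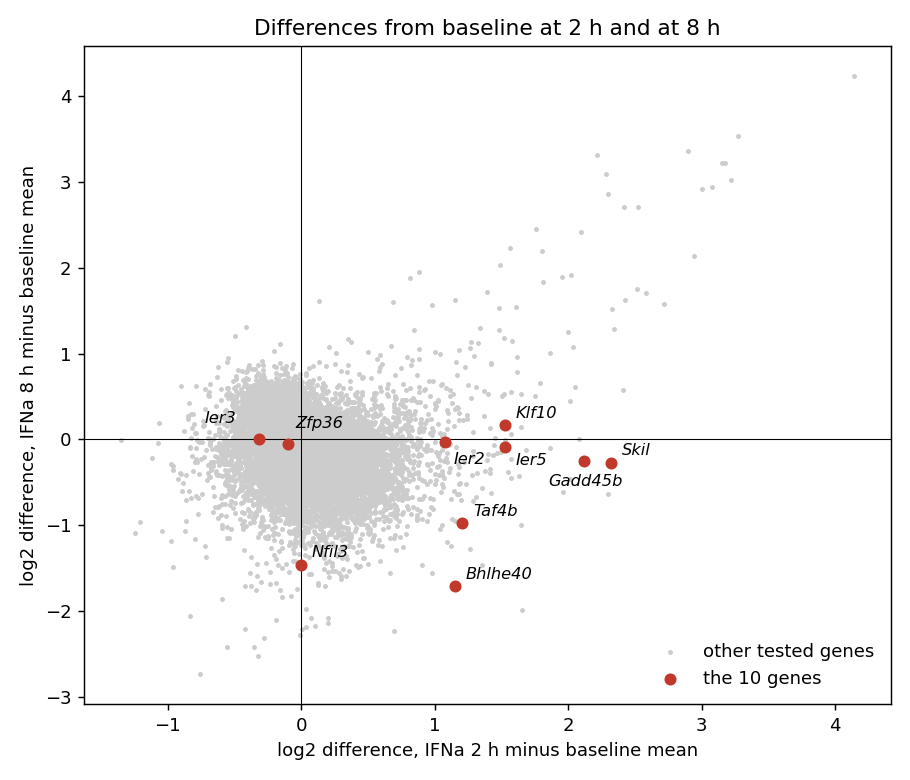
Log2 difference from the baseline mean at 2 h (x axis) and at 8 h (y axis) for the 10 genes (red) and all other tested genes (grey). Bhlhe40 (1.15 at 2 h, −1.71 at 8 h) and Taf4b (1.21 and −0.97) lie in the lower right, Skil (2.32 and −0.27) and Gadd45b (2.12 and −0.25) lie far right near the horizontal line, and Nfil3 (0.00 and −1.46) lies below the middle.

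Whether a gene ended below baseline or only returned to it depended for some of them on the array scale and the baseline array. Quantile normalization brought the median difference of all tested genes to −0.01 at 2 h and 0.00 at 8 h, and median centring of the arrays to 0.15 and −0.24. Of the 9 genes in the model 5 lay below both baseline arrays at 8 h (Bhlhe40, Nfil3, Taf4b, Skil and Gadd45b), as did 55.9% of all tested genes, 3 lay between them (19.7%) and 1 above both (24.4%). At 2 h and 8 h together 4 were first above and then below both (28.6%). Bhlhe40 (−1.55), Nfil3 (−1.30) and Taf4b (−0.81) were low at 8 h also relative to the median of all genes, while Skil (−0.11), Gadd45b (−0.08), Ier5 (0.08), Ier2 (0.13) and Zfp36 (0.11) were within 0.15 of it and Klf10 was above it (0.33). After quantile normalization 4 genes were below both baseline arrays, beside 39.5% of all tested genes (Gadd45b then lay between them and Zfp36 above both), and on centred arrays 6 were, beside 61.8% (Zfp36 in addition). Bhlhe40, Nfil3, Taf4b and Skil were below both baseline arrays under each of the 3 scalings, Skil with a gap of −0.06 after quantile normalization.

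The baseline arrays also differed in one direction. All 9 genes in the model were higher on baseline 2 than on baseline 1, as were 67.5% of tested genes, with a median difference of 0.16 for the 9 and 0.10 for all genes. Against baseline 2 alone 8 of the 9 were lower at 8 h (all but Klf10), beside 71.2% of all tested genes, and against baseline 1 alone 5 were, beside 60.3%, with Ier2 and Ier5 then 0.35 and 0.10 above it. Ier2 and Ier5 are therefore best described as back within the range of the baseline arrays. At 2 h the same 7 genes were above both baseline arrays as deposited, after quantile normalization and on centred arrays, beside 44.5% of all tested genes as deposited. The share of all genes was not counted on the other scales.

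**Figure D3:**
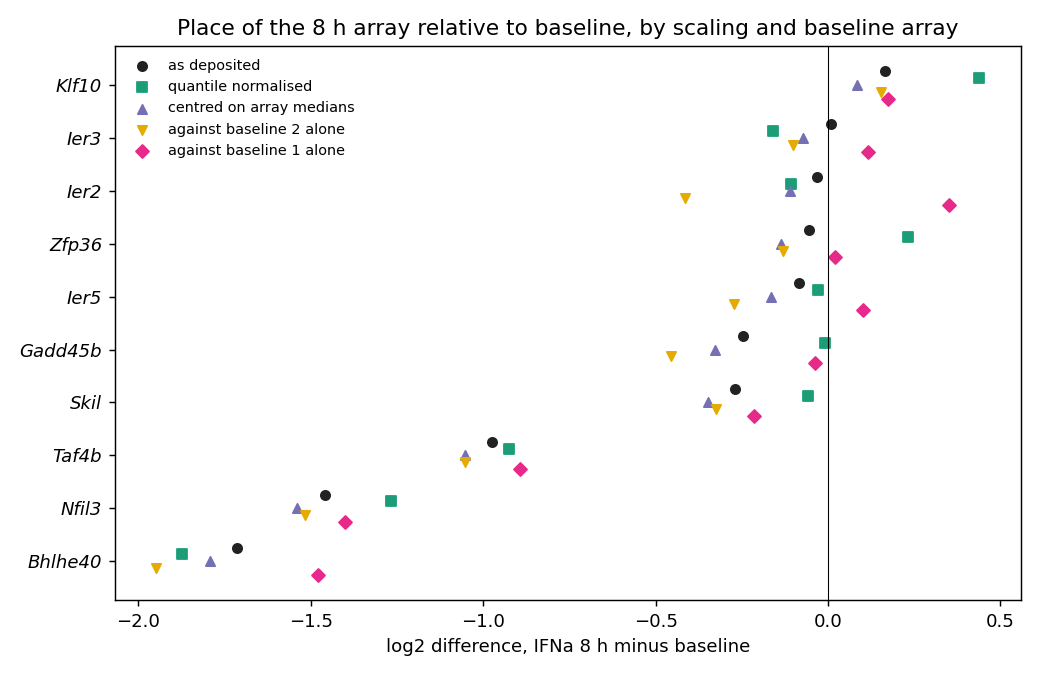
Log2 difference of the 8 h array from baseline (x axis) for each of the 10 genes (y axis) as deposited, after quantile normalization, with arrays centred on their medians, and against either baseline array alone. Bhlhe40, Nfil3 and Taf4b stay left of −0.8 in every version, while the points of Ier2, Ier5, Zfp36 and Ier3 fall on both sides of 0.

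Interferon-induced genes were high at both times on the same arrays. All 8 measured check genes (Ifit1, Ifit3, Rsad2, Mx1, Irf7, Usp18, Oasl2 and Rtp4) rose at 2 h and at 8 h (limma, adjusted p under 0.05), with medians of 3.16 and 3.12. None of the 8 was called between the times (limma, with 1 at an unadjusted p under 0.05, and Mx1 on centred arrays), where their differences ran from −0.88 to 0.26. Ifit3, Rsad2, Mx1, Oasl2 and Rtp4 exceeded the array median only on the IFNa arrays. They entered the model through those arrays, so nothing is read from their calls against baseline. Over all genes 62 (0.579%) were called both higher at 2 h than at baseline and lower at 8 h than at 2 h, among them 5 of the 9 genes described here (Skil, Gadd45b, Klf10, Ier5 and Taf4b). The 9 genes were chosen on these contrasts, so nothing is read from the 5. All 7 measured T cell markers (Cd3e, Cd3d, Cd3g, Cd4, Cd28, Cd5 and Cd2) were above the array median on every array and summed to 30920.3 and 35796 before IFNa, 35207 after 2 h and 38072 after 8 h. The 5 B cell markers were also above the median, at sums of 2456 and 2445 before IFNa, 2294 after 2 h and 3033 after 8 h, and of 8 myeloid and dendritic markers 1 or 2 were above it on each array, with sums of 1239 and 991 before IFNa, 812 after 2 h and 1056 after 8 h. Of 5 CD8 T and NK cell markers 2 (at baseline 1 and 8 h) or 1 (at baseline 2 and 2 h) were above it, with Cd8b1 at 9.78 and 9.68 before IFNa, 9.57 after 2 h and 9.87 after 8 h, and the sums of the 5 were 1279 and 1146 before IFNa, 1117 after 2 h and 1352 after 8 h. Of 5 neutrophil and erythroid markers at most 1 was, with sums of 577 and 577 before IFNa, 559 after 2 h and 710.3 after 8 h. The sums of all these lists but the T cell one were thus lowest at 2 h. All but the myeloid sum were highest at 8 h, the T cell sum included. The lower quartile of all rows ran the same way, at log2 values of 6.35 and 6.13 before IFNa, 6.06 after 2 h and 6.46 after 8 h. The part of other cell types in the results, and that of the array scale in these sums, was not tested. The calls over all genes split into 117 higher and 1 lower at 2 h (332 and 109 after quantile normalization), 70 and 358 at 8 h (663 and 900), and 156 and 1155 at 8 h against 2 h (990 and 1316).

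Skil and Klf10 act in the feedback on TGF-beta signalling, and some other genes of that feedback were high at the same time. This list and those that follow were chosen with earlier results of these data known, so their counts are a description. Of 17 tested genes of the list 4 rose at 2 h and none fell (limma; 8 higher and 0 lower at an unadjusted p under 0.05), against 1.09% called higher among all genes. They were Smad7, the inhibitory SMAD (log2 difference 1.79, SE 0.21, adjusted p = 0.00551, limma), Ldlrad4 (1.75, SE 0.21) and Pmepa1 (1.41, SE 0.21), related membrane proteins that keep SMADs from the receptor, and the SMAD corepressor Tgif1 (1.52, SE 0.20). Tgfbr1 and Ski were in addition called higher at 2 h after quantile normalization (both 0.79) and on centred arrays (1.01 and 0.99). Each of the 4 was also called higher at 2 h after quantile normalization, on centred arrays and with no filter on dim rows. Smad7 had log2 values of 8.75 and 8.94 before IFNa, 10.64 after 2 h and 9.51 after 8 h. Pmepa1 had 10.74 and 10.60 before IFNa, 12.08 after 2 h and 10.28 after 8 h. Both exceeded their baseline arrays at 2 h, while of the pair only Smad7 did so at 8 h.

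At 8 h none of the 17 was called against baseline by limma (2 higher and 1 lower at an unadjusted p under 0.05), where Smad7 stood at 0.66 (SE 0.21, adjusted p = 0.112, limma) and the receptor kinase Tgfbr1 at −0.69 (SE 0.21, adjusted p = 0.098). Between the times 7 of the 17 were lower at 8 h than at 2 h and none higher, against 10.8% called lower among all genes. They included Pmepa1 (−1.80, SE 0.24), Tgfbr1 (−1.60, SE 0.24), Tgif1 (−1.54, SE 0.23) and Ldlrad4 (−1.25, SE 0.24), and with no filter on dim rows 4 of the 7 calls were left. The list median was 0.48 at 2 h, −0.02 at 8 h and −0.46 between the times, beside 0.06, −0.16 and −0.25 for all genes, and the 8 h median was 0.25 after quantile normalization, where Smad7 (0.94) and Ldlrad4 (0.78) were also called higher at 8 h than at baseline. Ski, the closest relative of Skil, stood at 0.89 at 2 h (SE 0.20, adjusted p = 0.112) and 0.19 at 8 h, with a difference between the times called on centred arrays (−0.88), and Klf11, the closest relative of Klf10, at −0.13 and −0.05. The ligand Tgfb1 stood at 0.02 and −0.25. Other inhibitors of the pathway on the list were not called at 2 h, with Tgif2 at −0.09, Bambi, a decoy receptor, at −0.09, and the SMAD ubiquitin ligases Smurf1 at 0.22 and Smurf2 at 0.48. They are named here after their values were seen.

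**Figure D4:**
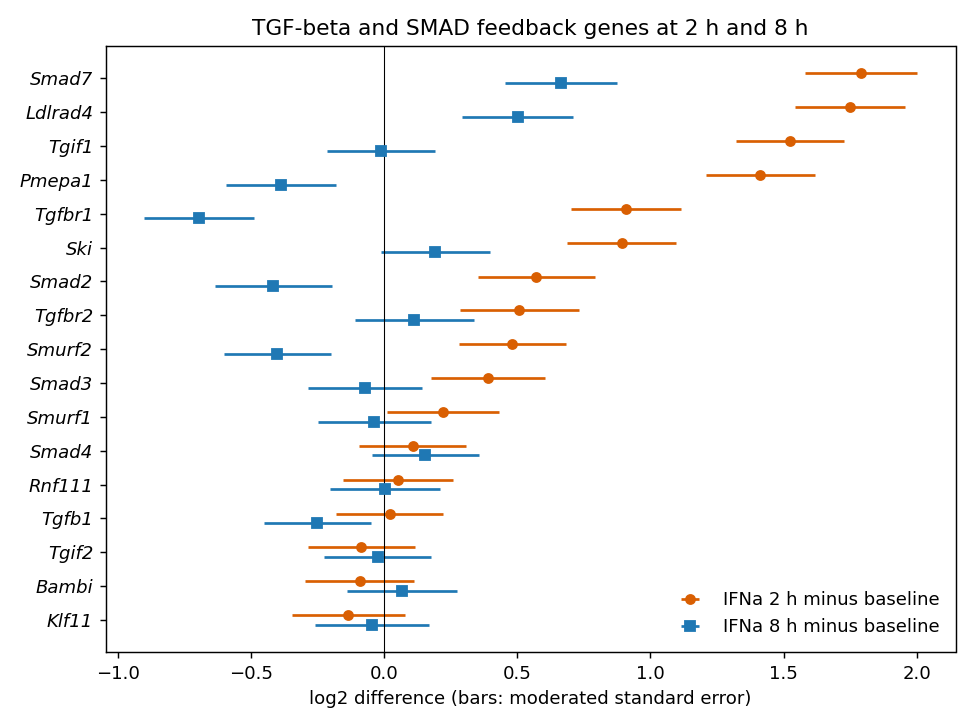
Log2 differences from the baseline mean at 2 h (orange circles) and 8 h (blue squares) of the 17 tested genes of TGF-beta and SMAD feedback other than Skil and Klf10, with bars of 1 moderated standard error. Smad7, Ldlrad4, Tgif1 and Pmepa1 lie between 1.41 and 1.79 at 2 h, and all 4 are lower at 8 h.

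As over all tested genes, other immediate early genes were called more often between the times than against baseline at either time. Of 36 tested (the 10 genes above left out) 7 rose at 2 h and none fell, 5 fell at 8 h and none rose, and 16 were lower at 8 h than at 2 h and none higher, against the background of 1.09%, 3.35% and 10.8%. Nr4a1 (2.30, SE 0.28) and Nr4a3 (1.66, SE 0.20), both nuclear receptors, the G protein regulator Rgs2 (1.65, SE 0.26) and the zinc finger factor Egr2 (1.65, SE 0.21) had the largest differences among those called. Nr4a3 (−1.99, SE 0.20), the AP-1 subunit Jun (−1.38, SE 0.23), the stress factor Atf3 (−1.28, SE 0.24) and Myc (−1.20, SE 0.21), a driver of cell growth, were the largest falls at 8 h. After quantile normalization 14 were called higher at 2 h and on centred arrays 12, beside 332 and 291 of all 10699 tested genes. With no filter on dim rows 2 were called lower at 8 h and 9 lower at 8 h than at 2 h. Over all 19752 genes then tested these calls were 101 and 395. The list median was 0.50 at 2 h (0.33 against baseline 2 alone, 0.73 against baseline 1 alone), −0.27 at 8 h (−0.39 and −0.15 against the same arrays) and −0.82 between the times. Rgs2, Fos, Maff and Klf4 entered the model only through their 2 h value, the 1 array on which they exceeded the array median. The 7 genes higher at 2 h and the 16 lower at 8 h than at 2 h include Rgs2. Nothing is read from its call at 2 h or from its call between the times. The 2 h call of Rgs2 was lost with no filter on dim rows. Ier5l, the relative of Ier5, stood at 0.46 at 2 h and 0.52 at 8 h, neither called, but was called higher at 8 h after quantile normalization (0.79).

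Gadd45b acts with its relatives on the stress kinases, and none of 18 tested genes of that list was called against baseline at 2 h or 8 h (limma; at an unadjusted p under 0.05 they were 3 higher and 1 lower at 2 h, and 0 higher and 3 lower at 8 h). Gadd45g, a cytokine-inducible member of the family, stood at 1.06 at 2 h (SE 0.33, adjusted p = 0.256) and −0.37 at 8 h, with log2 values of 7.10 and 7.96 before IFNa, 8.59 after 2 h and 7.16 after 8 h. Its baseline arrays lay far apart. After quantile normalization and on centred arrays Gadd45g and Map2k3 were called higher at 2 h, and on centred arrays Map2k3 was called lower at 8 h. Gadd45a, the p53-inducible member, stood at 0.15 and −0.21. Gadd45g (−1.43, SE 0.38), the p38 activator Map2k3 (−1.72, SE 0.29) and the JNK activator Map2k4 (−0.89, SE 0.23) were lower at 8 h than at 2 h. Their share of the list, 3 of 18, stands beside 10.8% of all tested genes, and with no filter on dim rows 1 of these 3 calls was left (Map2k3). The median of the list was 0.07 at 2 h and −0.25 at 8 h.

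Zfp36 lay near baseline, and its relatives were not called, Zfp36l1 (0.30 at 2 h, SE 0.22, 0.00 at 8 h) and Zfp36l2 (0.42, SE 0.23, and 0.30) among them. Of 27 tested genes of message decay none was called against baseline at either time (limma; 3 higher and 0 lower at 2 h and 1 higher and 3 lower at 8 h at an unadjusted p under 0.05), and 3 were lower at 8 h than at 2 h, a share near the 10.8% of all tested genes: the decapping enzyme Dcp2 (−1.29, SE 0.29), the ribonuclease Zc3h12a (−0.93, SE 0.24) and the deadenylase subunit Cnot11 (−0.89, SE 0.24). None of these 3 calls was left with no filter on dim rows. Of 8 tested cytokine and growth genes whose messages Zfp36 is known to bind, none was called at 2 h (limma; 2 at an unadjusted p under 0.05, of which Fos exceeded the array median only at 2 h) and 4 fell at 8 h, beside 3.35% of all tested genes, the T cell growth factor Il2 (−2.23, SE 0.27), Lif (−2.09, SE 0.22), Tnf (−1.30, SE 0.23) and Myc. Il2 had log2 values of 9.81 and 9.23 before IFNa, 10.22 after 2 h and 7.29 after 8 h, while Zfp36 itself had 9.29 and 9.44, 9.27 and 9.31. With no filter on dim rows 2 of these 4 calls were left (Il2 and Lif).

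The clock partners of Bhlhe40 and Nfil3 and the TFIID partners of Taf4b gave few calls. Of 14 tested clock and D-box genes none was called at 2 h by limma (1 at an unadjusted p under 0.05), and 1 fell at 8 h, the clock repressor Ciart (−1.29, SE 0.25, adjusted p = 0.0318, limma). Ciart exceeded the array median only on the baseline arrays, through which it entered the model, so nothing is read from its call. Nr1d2, a nuclear receptor of the clock, was lower at 8 h than at 2 h (−1.15, SE 0.25) and stood at 1.01 at 2 h (SE 0.21, adjusted p = 0.083), where it was called after quantile normalization and on centred arrays. The D-box activators Dbp (−0.13 at 2 h and −0.16 at 8 h) and Tef (0.11 and 0.02) were not called, and Hlf and Bhlhe41, the relative of Bhlhe40, were too dim to be tested, with log2 values up to 6.73 and 5.01. Of 14 tested TFIID subunits none was called at 2 h by limma (2 at an unadjusted p under 0.05) and 1 fell at 8 h, Taf5 (−1.04, SE 0.22, adjusted p = 0.0411), a scaffold subunit. Taf5 and Taf13 (−1.04, SE 0.23) were lower at 8 h than at 2 h. The single calls among 14 at 8 h stand beside 3.35% of all tested genes, and the 1 and 2 of 14 between the times stand beside 10.8%, so neither list is set apart by these counts. Nr1d2, Taf5, Taf13 and Ciart lost these calls with no filter on dim rows. Taf4a had no row that named it alone.

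The genes nearest in course to the 9 over the 4 arrays are given as a description. They were ranked among all tested genes on the arrays that chose the 9. Some small distances would turn up in any case, so nothing is read from them. By the Euclidean distance between log2 values centred on the baseline mean, the genes nearest to the median course of the 9 were the AP-1 subunit Fosl2 (distance 0.07), the BCL6 corepressor Bcor (0.08), the RNA-binding protein gene Cpeb2 (0.12), N4bp1 (0.14), Gfod1 (0.16) and the replication factor subunit Rfc3 (0.16). Fosl2 had 8.17 and 8.26 before IFNa, 9.39 after 2 h and 7.93 after 8 h. The nearest gene to Skil was Gadd45b (0.30), to Bhlhe40 Nol10 (0.24), to Taf4b Usp6nl (0.11), to Klf10 Fasl (0.16), to Gadd45b Spsb1 (0.25), to Ier2 Spata2 (0.12) and to Ier5 Tbc1d30 (0.18). Nfil3 was nearest to Higd1a (0.12), and Zfp36 to Strada (0.02). Of these neighbours, Fasl, Tbc1d30 and Higd1a exceeded the array median only at 2 h and entered the model through that array.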

How the data were processed

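RNA from 4 samples was hybridised to Affymetrix Mouse Gene 1.0 ST arrays (1 each). Values deposited by the authors are a linear intensity. Per the submitters' processing notes, Affymetrix Power Tools and RMA were used. The deposited intensity ran from 10.3 to 27543, and the array medians from 176 to 199. RMA keeps some unspecific signal, so folds of dim genes are understated. The number of arrays limits the precision.

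Log2 of the deposited intensity was taken with no pseudocount. Of 24922 rows 21425 had 1 symbol in the platform annotation, and of several rows for a gene the brightest on average was used. Gene IDs were matched to RefSeq (GRCm38.p6), which changed 0 symbols and left 75 unmatched. Genes above the array median on at least 1 array were tested (10699). Limma 3.58.1 in R 4.3.3 fitted a mean per group and moderated the variances by empirical Bayes. Tests were two-sided, with Benjamini-Hochberg adjustment over all tested genes and calls at 0.05. Only the 2 baseline arrays gave a spread (1 residual degree of freedom, prior 7.46), and the single IFNa arrays were assumed to vary like them. The scripts were tested on simulated data.

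The 10 genes and the lists were chosen with earlier results of these data known. Named from each list were up to 4 called genes with the largest difference per comparison (2 as values where none was called), relatives of the 10 genes, and the 6 nearest in course. Alternatives were quantile normalization, median centring, other filters, the mean of a gene's rows, a floor, other variance priors and leaving out each baseline array. Promoter windows came from RefSeq for 5 of the 10 genes.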

Additional observations from a re-analysis of the deposited data

Results flagged for a closer look

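Bhlhe40, Skil, Taf4b and Gadd45b lay above both baseline arrays at 2 h and below both at 8 h, with differences between the times (8 h minus 2 h, log2) of −2.86, −2.59, −2.18 and −2.37. That their effects differ between the times was not tested, since they were chosen on it, and 28.6% of all tested genes lay on the same sides. After quantile normalization Gadd45b lay between the baseline arrays at 8 h.

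For 24 named genes of the lists the effect at 8 h differed from that at 2 h in the model over all genes (limma, adjusted p under 0.05), all lower at 8 h. They were picked from the called genes, at most 4 per list and comparison, so 24 is no share of the lists. Over all tested genes 1155 (10.8%) were called lower and 156 higher at 8 h than at 2 h. Nothing is read from the count or its direction. The values that follow are the differences between the times. Among immediate early genes they were −3.64 for Nr4a3, −2.94 for Nr4a1, −2.64 for Egr2, −2.54 for Atf3, −1.69 for Jun, −1.50 for Rgs2 and −1.17 for Myc. Of these, Rgs2 entered the model only through its 2 h value, so nothing is read from its call. Among TGF-beta and SMAD genes they were −1.80 for Pmepa1, −1.60 for Tgfbr1, −1.54 for Tgif1, −1.25 for Ldlrad4 and −1.13 for Smad7. Among cytokine genes they were −2.93 for Il2, −2.28 for Lif and −1.76 for Tnf. The others were −1.72 for Map2k3, −1.43 for Gadd45g and −0.89 for Map2k4, −1.29 for Dcp2, −0.93 for Zc3h12a and −0.89 for Cnot11, −1.15 for Nr1d2, −0.99 for Taf5 and −1.04 for Taf13. The comparisons with baseline share the baseline arrays, and each IFNa time rests on 1 array.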

How the results depend on the processing

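The 118 genes called at 2 h became 441 after quantile normalization and 298 on centred arrays. The 428 called at 8 h became 1563 and 794, 143 with no filter on dim rows and 255 with the filter at the 60th percentile. The 1311 called between the times became 2306 and 2387, and 415 with no filter. For the quantile and centred values and for the filters the cause was not tested. Without either baseline array the median of the 9 genes ran from 1.13 to 1.46 at 2 h and from −0.42 to −0.04 at 8 h, and the number below baseline at 8 h was 5 without baseline replicate 2 and 8 without baseline replicate 1, beside 60.3% and 71.2% of all tested genes. The difference of Ier3 between the times turned to −0.0062 after quantile normalization, against 0.33 as deposited. Of 240 alternative values of the 10 genes' differences 211 moved by less than the SD of the gene's baseline arrays, 28 moved by more and 1 reversed. Most of the 211 could not move further. The filters, the mean of a gene's rows and the floor left every value of these genes unchanged. Leaving out a baseline array always shifts a difference by less than that SD. Only quantile normalization and median centring could give a larger move, so the 211 are no measure of robustness. Of 1236 alternative results for the list genes that were called or related to the 10 genes 1156 kept their side of the threshold, 47 lost a call and 33 gained one. Without a baseline array no spread is left, so calls have no such version. No paired analysis was possible because the groups share a single replicate number. Array number and dim signal, as for Ier3, limit what can be seen.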
